A study of Homo sapiens with 15 samples.

Results

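MT-CYB is the mitochondrial gene for cytochrome b, the subunit of respiratory complex III that carries electrons from ubiquinol toward cytochrome c and the only subunit of that complex made inside the organelle. It is 1 of the 37 annotated mitochondrial genes and was chosen by its place on the genome. No measured value entered the rule, but earlier results of these data were known when it was set. It runs from chrM position 14747 to 15887 (GRCh37, GENCODE 44), a protein-coding gene of 1141 bases in a single exon with no intron. The genes of 2 transfer RNAs, MT-TT for threonine and MT-TP for proline, separate it from the non-coding region (NCR), the control region that holds the origin of heavy-strand synthesis and the D-loop. All termini from its first to its last base were used on the heavy (H) and the light (L) strand, and 1138 positions on the H strand and 1120 on the L strand held a terminus in at least 1 sample.

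K562 is an established human chronic myeloid leukemia cell line, labelled as wild type. SSiNGLe-P1 was applied to crosslinked nuclei, with which mitochondria co-purify. Nuclease P1 preferentially cuts single-stranded DNA and leaves 3′-OH termini. These are tailed with polyA and located by sequencing together with the 3′-OH termini that were in the DNA already. Each of 5 groups held 3 biological replicates: nuclei kept without P1 as untreated samples, and nuclei incubated with P1 at 0.01, 0.1, 1 or 10 U for 10 min at 37 °C. The signal is of the bulk material, so more molecules of mitochondrial DNA that carry a break and more breaks per molecule cannot be told apart. The paper reports visible degradation of genomic DNA at the highest amount of the nuclease, which it relates to a low activity on double-stranded DNA. It proposes these samples as a possible further negative control and puts their lower H/L ratio down to non-specific cutting. What part of the termini after 10 U came from double-stranded DNA was not tested.

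In the strand-displacement model of mitochondrial replication, the nascent H strand starts in the control region and pushes the parental H strand aside as it is extended. MT-CYB is the first protein-coding gene that the nascent strand passes, and its displaced parental H strand would stay single-stranded until L-strand synthesis, which starts far away, has come around to it. The H strand is also the template from which the messenger RNA of MT-CYB is transcribed, so the sense sequence of the gene equals the L strand. Whether the H strand of this gene was more open to P1 than its L strand is the question that the comparison of both strands across the P1 amounts addresses.

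The ends of the sense sequence are shown to place the gene between its neighbours. They come from the GENCODE 44 record of the transcript, with the start codon in capitals in the upper line. In the lower line the capital marks the single base of the stop codon that the gene encodes, which polyadenylation of the messenger RNA completes.
MT-CYB, first 60 bases: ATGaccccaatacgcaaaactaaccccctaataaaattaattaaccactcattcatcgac
MT-CYB, last 60 bases: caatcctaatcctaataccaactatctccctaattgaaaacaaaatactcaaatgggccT
The start lies on the side of MT-ND6 and MT-ND5, and the end abuts MT-TT on the side of the control region. On the L strand the gene held 28.6% A, 34.3% C, 12.01% G and 25.2% T, and the H strand is its complement. The longest run of A had 4 bases on either strand. The genome of the files reaches position 16571 and the reference used for annotation has 16569 bases, so the ends of the gene can be off by a few bases in the files.

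The samples held 29622 to 692989 mitochondrial termini, of which 65.6 to 81.9% lay in the NCR up to 0.1 U of P1, 38.1 to 41.0% after 1 U and 23.8 to 30.7% after 10 U. The share of MT-CYB in all mitochondrial termini therefore moves with the share of the NCR, and it is given also as a share of the termini outside the NCR. Untreated replicate 1 was the shallowest untreated sample, with 112179 termini against 468797 and 486276, and the 10 U samples were the shallowest of all, with 29622 to 57127. Counts of termini without molecular identifiers are not counts of independent molecules.

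The H-strand share of MT-CYB in the mitochondrial termini exceeded the untreated share at 0.1, 1 and 10 U, most after 1 U. Its L-strand share was lower at 0.1 U than without P1. The counts that follow are not scaled to depth. Without P1, the H strand held 1599, 6341 and 6228 termini in replicates 1 to 3 and the L strand held 1633, 6779 and 5975. At 1 U, the H strand held 21270, 20771 and 19489 termini and the L strand 4874, 3494 and 2298. The strands were thus near parity in each untreated sample, and each 1 U sample had several times more termini on the H strand. At 0.1 U, the H strand held 9762, 11957 and 19558 termini against 3606, 3851 and 5201 on the L strand. At 0.01 U, the H strand held 9649, 6125 and 5766 termini against 9682, 5693 and 4925 on the L strand, close to parity as in the untreated samples. At 10 U, where few termini remained, the H strand held 1953, 2427 and 1171 termini against 1074, 1559 and 646 on the L strand.

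The H/L ratio of all termini in MT-CYB was 0.979, 0.935 and 1.04 in the untreated replicates and 0.997, 1.08 and 1.17 after 0.01 U. It rose to 2.71, 3.10 and 3.76 after 0.1 U and to 4.36, 5.94 and 8.48 after 1 U, and was 1.82, 1.56 and 1.81 after 10 U. The ranges after these 3 larger amounts overlapped neither each other nor the untreated range. Within replicate numbers, the ratio after 1 U was 6.13-fold above the untreated ratio (range 4.46 to 8.14), that after 0.1 U was 3.21-fold above it (2.76 to 3.61) and that after 10 U was 1.75-fold above it (1.66 to 1.86). From 1 to 10 U, the ratio went to 0.286 of its value (0.214 to 0.417), lower in 3 of 3 replicates. The ratio differed over the 5 amounts in an exact permutation test within replicate numbers, two-sided, with p = 6.94e-05, the smallest that its 14400 arrangements can give, and 0.000556 after Benjamini-Hochberg adjustment over the 8 tests of this kind. An exact permutation test of 1 amount against another within the 3 replicate numbers cannot go below p = 0.25 and was not made.

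The H/L ratio of unique sites, which counts each position with a terminus once, was 1.01 ± 0.0284 (SD, n = 3) without P1 and 1.06 ± 0.0278 after 0.01 U. It was 1.498 ± 0.0499 after 0.1 U, 1.63 ± 0.208 after 1 U and 1.42 ± 0.0458 after 10 U. The amounts differed in the exact permutation test (p = 0.00215, adjusted p = 0.00287 over 8 tests). The call was lost without replicate 2 (p = 0.075 in the exact permutation test). A count of unique sites is bounded by the length of the gene. A terminus was present at 61.2% ± 15.03 of the H-strand positions without P1, at 91.8% ± 2.65 after 1 U and at 44.4% ± 7.91 after 10 U, against 60.6%, 57.0% and 31.3% of the L-strand positions. After thinning of each sample to 29622 mitochondrial termini, the unique-site ratio was 0.983 without P1, 2.23 after 0.1 U, 2.83 after 1 U and 1.43 after 10 U. The gene held 1.55 to 7.29% of the mitochondrial termini, so thinning made the totals equal and not the depth within MT-CYB.

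**Figure D1:**
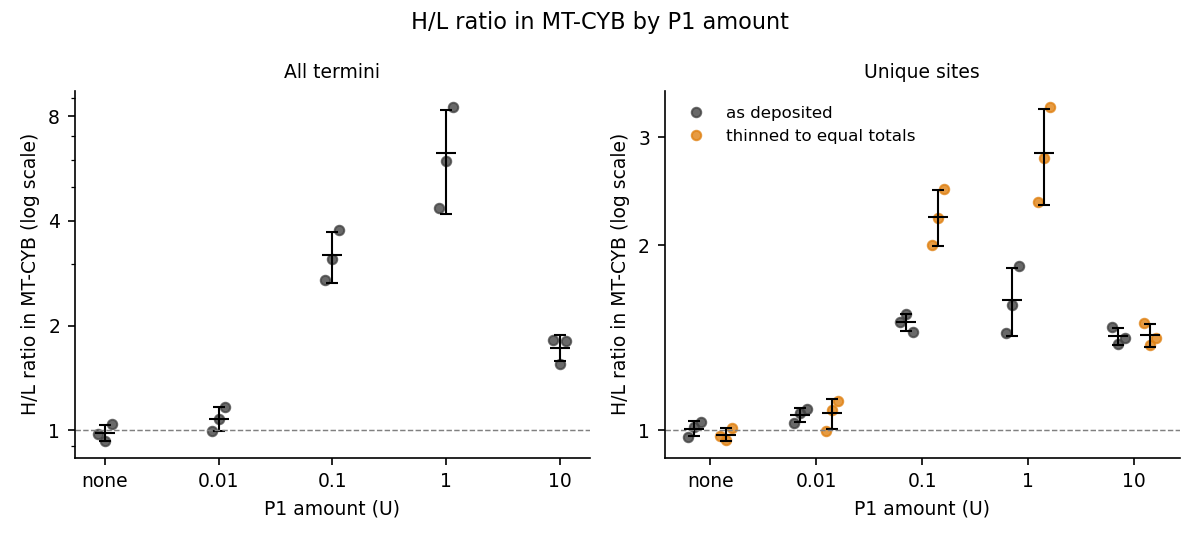
H/L ratio of MT-CYB by P1 amount in U, on log axes, for all termini (left) and for unique sites (right, as deposited in grey and after thinning to equal totals of mitochondrial termini in orange). Points are the 3 replicates, bars the mean with the SD, and the dashed line marks equal strands. The ratio of all termini lies near 1 without P1 and at 4.36 to 8.48 after 1 U, and thinning raises the unique-site ratio at 0.1 and 1 U.

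The density of MT-CYB was then taken per strand, as termini per kb per 1000000 mitochondrial termini. On the H strand it was 11857 ± 634 (SD, n = 3) without P1, 10275 ± 2738 after 0.01 U, 22031 ± 2887 after 0.1 U, 53204 ± 3468 after 1 U and 37260 ± 2627 after 10 U. The 3 lowest values of the treated samples were after 0.01 U, and every sample after 0.1 U or above exceeded every untreated sample. On the L strand it was 12067 ± 1125 without P1, 9680 ± 3269 after 0.01 U, 6985 ± 1130 after 0.1 U, 9046 ± 2620 after 1 U and 21658 ± 2415 after 10 U. The L-strand samples after 1 U, from 6737 to 11894, overlapped the untreated range of 10769 to 12758. Both densities differed over the amounts in exact permutation tests within replicate numbers (H strand p = 0.000139, L strand p = 0.000903, adjusted p = 0.000556 and 0.00144 over 8 tests), and the L-strand call was lost without replicate 2 (p = 0.0583).

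Scaled per 1000000 termini outside the NCR, the H-strand density of MT-CYB was 37115 without P1, 69232 after 0.1 U, 88479 after 1 U and 51189 after 10 U. The L-strand density on this scale was 37710, 21925, 14963 and 29684 at the same amounts, so after 10 U it lay below the untreated value where the share of all mitochondrial termini lay above it. The direction of the L strand after 10 U thus depends on which total is used, and the direction of the H strand at 0.1, 1 and 10 U does not.

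**Figure D2:**
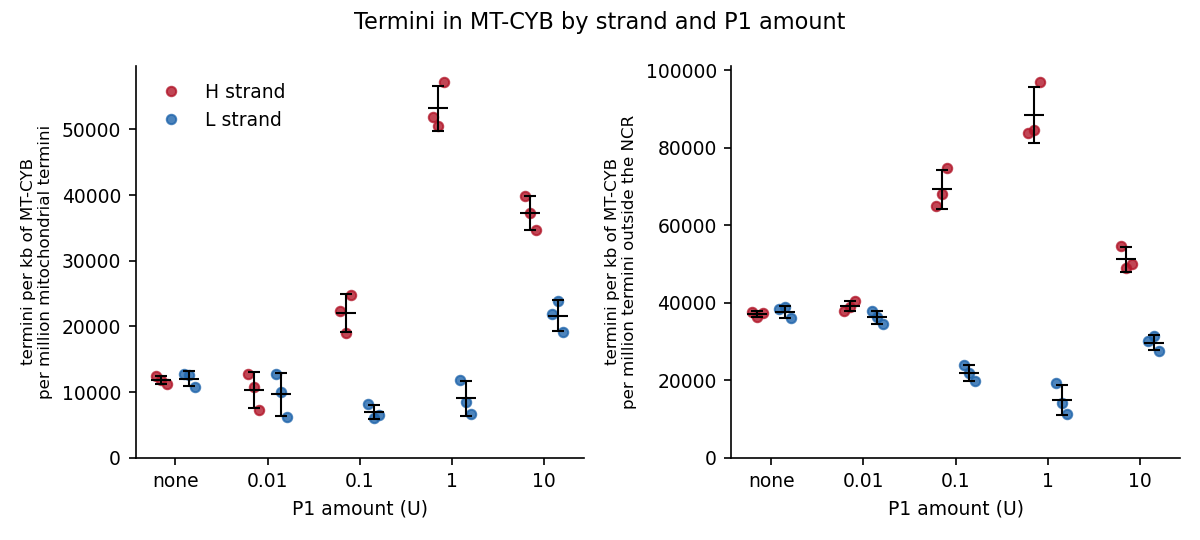
Termini per kb of MT-CYB on the H strand (red) and the L strand (blue) by P1 amount in U, per 1000000 mitochondrial termini (left) and per 1000000 termini outside the NCR (right). Points are the 3 replicates and bars the mean with the SD. The H strand is highest after 1 U on both scales, and the L strand after 10 U is above the untreated samples on the left and below them on the right.

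The same contrast was fitted with edgeR across 38 mitochondrial features (the 37 genes and the NCR) on both strands, with all mitochondrial termini as the library size. MT-CYB rose on the H strand by a log2 fold change of 0.90 ± 0.18 (SE) after 0.1 U (edgeR, Benjamini-Hochberg adjusted p = 4.58e-06), by 2.17 ± 0.18 after 1 U (adjusted p = 2.03e-27) and by 1.65 ± 0.18 after 10 U (adjusted p = 1.09e-17). Such calls were common, since 73.7% of the features were called higher on the H strand after 0.1 U, 92.1% after 1 U and 89.5% after 10 U. The log2 fold change of MT-CYB ranked 16th, 14th and 19th of the 38 H-strand features at these amounts, in the middle of the order. At 0.01 U neither strand was called, with log2 fold changes of -0.22 on the H strand and -0.36 on the L strand (edgeR, adjusted p = 0.325 and 0.245). The 4 comparisons share the untreated samples.

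The L strand of MT-CYB fell by 0.79 ± 0.19 on the log2 scale after 0.1 U (edgeR, adjusted p = 0.000173) and by 0.45 ± 0.19 after 1 U (adjusted p = 0.0287), as did 92.1% and 71.1% of the L-strand features. The call after 1 U was lost without replicate 2 or 3 and without the replicate block (edgeR log2 fold change -0.42, adjusted p = 0.0891), and the call after 0.1 U was lost without replicate 2 (-0.67, adjusted p = 0.069). At 10 U the L strand rose by 0.84 ± 0.19 (edgeR, adjusted p = 2.96e-05), with 68.4% of the L-strand features called higher. With the total taken outside the NCR, MT-CYB after 10 U had a log2 fold change of -0.35 ± 0.11 on the L strand and 0.47 ± 0.08 on the H strand (edgeR, adjusted p = 0.0128 and 0.000273), and after 1 U of -1.35 ± 0.11 and 1.25 ± 0.08.

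MT-CYB was denser in H-strand termini than the rest of the genome outside the NCR in every sample, and P1 widened this. The ratio of its density to that of the rest was 1.199 to 1.24 without P1, 1.22 to 1.25 after 0.01 U, 1.60 to 1.71 after 0.1 U, 1.72 to 1.87 after 1 U and 1.25 to 1.49 after 10 U. The ratio after 1 U was 1.498-fold above the untreated ratio (range 1.39 to 1.56, higher in 3 of 3 replicates), and the amounts differed in the exact permutation test (p = 0.000208, adjusted p = 0.000556 over 8 tests). With each position counted once, the ratio was 1.03-fold above the untreated one after 1 U and 1.13-fold above it after 10 U. On the L strand the ratio was 1.13 without P1, 1.06 after 0.1 U, 1.15 after 1 U and 1.14 after 10 U. The exact permutation test of the L strand gave p = 0.0444, which was lost without the replicate block (p = 0.0528) and without replicate 1 or 2 (p = 0.208 and 0.283).

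Among the 15 protein-coding and ribosomal RNA genes, MT-CYB ranked 2 or 3 in H-strand density in the untreated and 0.01 U samples, behind MT-ND5. It ranked 1 in all 3 samples after 0.1 U, 1, 2 and 1 in the replicates after 1 U, and 1, 2 and 4 after 10 U. The H/L ratio of MT-CYB after 1 U, 6.26 ± 2.08, was next to that of MT-ND5, the highest of these 15 genes, and the spread between replicates was wider than the gap between them.

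The neighbours on both sides were set against MT-CYB as the ratio of densities in the same sample. MT-ND5, which encodes a subunit of complex I and lies farther from the control region, had an H-strand density of 13463 ± 1122 termini per kb per 1000000 without P1 and 51530 ± 4577 after 1 U. The MT-CYB density was 0.883 ± 0.0641 of that of MT-ND5 without P1, 0.837 ± 0.00379 after 0.01 U, 1.03 ± 0.0208 after 0.1 U, 1.03 ± 0.0622 after 1 U and 0.982 ± 0.103 after 10 U (exact permutation test over the 5 amounts, p = 0.0117, adjusted p = 0.0182 over 8 neighbour tests). MT-ND6, the complex I subunit gene encoded on the opposite strand, had a lower H-strand density, and MT-CYB was 1.18 ± 0.0760 of it without P1, 1.10 ± 0.0220 after 0.01 U, 1.40 ± 0.0797 after 0.1 U, 1.26 ± 0.0842 after 1 U and 1.46 ± 0.128 after 10 U (exact permutation p = 0.00701, adjusted p = 0.0182).

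The transfer RNA genes toward the control region started from much lower H-strand levels and drew nearer to MT-CYB with P1. MT-TT held 3935 ± 1470 H-strand termini per kb per 1000000 without P1, 15040 ± 1780 after 0.1 U, 28573 ± 6900 after 1 U and 35668 ± 10144 after 10 U. The MT-CYB density was 3.26 ± 0.991 times that of MT-TT without P1, 1.46 ± 0.0964 times after 0.1 U, 1.93 ± 0.445 times after 1 U and 1.10 ± 0.300 times after 10 U (exact permutation p = 0.00188, adjusted p = 0.0150). Against MT-TP it was 3.43 ± 1.04 times without P1 and 1.61 ± 0.171, 1.93 ± 0.234 and 2.00 ± 0.403 times at 0.1, 1 and 10 U (exact permutation p = 0.0137, adjusted p = 0.0182). Both genes are short, and without P1 their H-strand values rest on as few as 41 termini in MT-TT and 41 in MT-TP. After 10 U the lowest counts were 47 and 43.

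On the L strand, MT-CYB against MT-TP went from 2.68 ± 0.493 times without P1 to 1.36 ± 0.167 times after 10 U (exact permutation p = 0.00438, adjusted p = 0.0175). Against MT-ND5 it went from 1.10 ± 0.0108 to 1.35 ± 0.0459 times (p = 0.0135 in the exact permutation test, adjusted p = 0.0182). The L-strand ratios to MT-ND6 (p = 0.518) and MT-TT (p = 0.0460, adjusted p = 0.0526) did not pass the exact permutation test after adjustment. After 10 U, the L-strand values rest on as few as 25 termini in MT-TP and 15 in MT-TT.

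**Figure D3:**
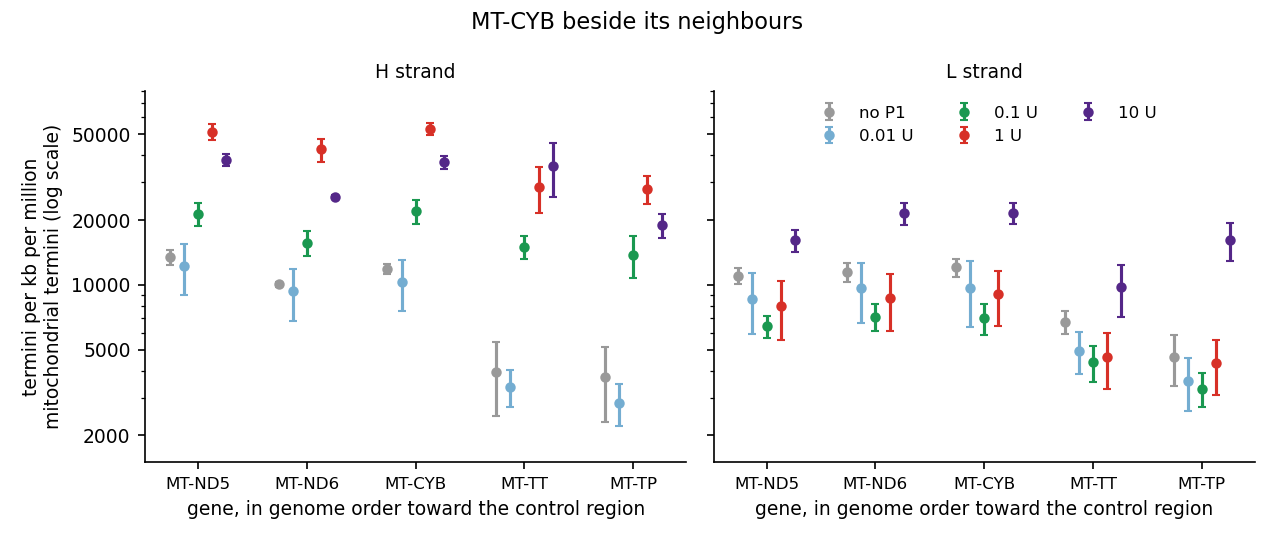
Termini per kb per 1000000 mitochondrial termini, on a log axis, of MT-CYB and its 4 neighbours in genome order toward the control region, on the H strand (left) and the L strand (right). Points are means of 3 replicates with the SD, coloured by P1 amount. On the H strand MT-TT and MT-TP lie well below MT-CYB without P1, and MT-TT reaches 35668 against 37260 of MT-CYB after 10 U.

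Along MT-CYB, the H-strand termini without P1 had their lowest mean near the gene end next to MT-TT, where the mean was highest after 10 U. Counted from the gene end next to MT-TT, the 11 full bins of 100 bp held 620 to 1733 H-strand termini per 1000000 mitochondrial termini without P1, with the lowest mean in the bin from 101 to 200 bases. At 1 U the bins held 2746 to 7152, with the lowest mean from 801 to 900 bases and the highest from 501 to 600 bases. At 10 U they held 1656 to 6582, with the highest mean in the bin from 101 to 200 bases and the lowest from 401 to 500 bases. The profiles of replicates correlated across these 11 bins with Pearson's r of 0.836 to 0.993 on the H strand within each amount, and of 0.731 to 0.985 on the L strand, a description across bins of samples that share base composition.

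The bin from 101 to 200 bases before the gene end (chrM position 15688 to 15787) showed the largest H-strand change of the gene at 0.1, 1 and 10 U. It was singled out for this change and had the lowest untreated mean of the bins, so its folds and edgeR values are a description. It held 98, 237 and 234 termini in untreated replicates 1 to 3, or 874, 506 and 481 per 1000000 mitochondrial termini. At 1 U it held 2174, 2125 and 2017 termini, or 6053, 5904 and 6747 per 1000000, and after 10 U it held 355, 368 and 149 termini, or 8275, 6442 and 5030 per 1000000. Every sample at 1 and 10 U lay several times above every untreated sample. Its log2 fold change was 1.72 ± 0.23 (SE) after 0.1 U, 3.40 ± 0.24 after 1 U and 3.46 ± 0.24 after 10 U, which is 10.6-fold after 1 U and 10.99-fold after 10 U (edgeR, adjusted p = 1.42e-12, 2.11e-43 and 1.53e-43). With the total taken outside the NCR, the ratio of the group means was lower, 5.38 after 1 U and 4.68 after 10 U, and the order of these amounts turned.

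All 11 H-strand bins of MT-CYB were called higher at 0.1, 1 and 10 U (edgeR with Benjamini-Hochberg adjustment over 166 bins per strand), where 54.8%, 86.1% and 95.2% of the H-strand bins of the genome were. Their median log2 fold change was 0.85 after 0.1 U against 0.51 over all bins, 2.11 against 1.69 after 1 U and 1.33 against 1.28 after 10 U. The bin farthest from the control region, 1001 to 1100 bases before the gene end, held 1649, 1728 and 1586 per 1000000 without P1 and 6128, 6970 and 6901 after 1 U, with log2 fold changes of 2.01 ± 0.22 after 1 U and 1.27 ± 0.22 after 10 U. The smallest changes were in the bin from 701 to 800 bases, with 1.65 ± 0.22 after 1 U and 0.83 ± 0.23 after 10 U. At 10 U the H-strand call depended on the total: with the total taken outside the NCR, 36.4% of the bins of MT-CYB were called higher. On that scale the mean of the bin from 701 to 800 bases lay under the untreated mean after 10 U, at 0.781 of it, as did those from 401 to 500 bases (0.824) and from 601 to 700 bases (0.907).

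The L-strand bins moved the other way after 0.1 U. All 11 were called lower after 0.1 U (edgeR, background 92.8%), with log2 fold changes from -0.97 to -0.67, and 6 were called lower after 1 U (background 56.6%). At 10 U 8 of the 11 bins were called higher (background 69.3%), though 9.09% were with the total taken outside the NCR. These counts were near the background and do not set MT-CYB apart. The median log2 fold change of its L-strand bins was -0.81 against -0.75 over all bins after 0.1 U. It was -0.47 against -0.49 after 1 U and 0.64 against 0.74 after 10 U. Without replicate 2, none of the L-strand bins was called lower at 0.1 or 1 U by edgeR. At 0.01 U no bin was called on either strand by edgeR, and the unadjusted p was under 0.05 in 0 of 11 H-strand bins and in 2 of 11 L-strand bins. The L-strand bin from 701 to 800 bases rose most after 10 U, from 1230, 877 and 763 per 1000000 without P1 to 3007, 4026 and 2498, a log2 fold change of 1.77 ± 0.24 (edgeR, adjusted p = 5.77e-13). This bin was singled out for its rise, so the edgeR value is a description. A single position, 15156, held 23.9% of the bin's L-strand termini after 10 U. Without it the bin was 2.77-fold above the untreated samples (range 2.07 to 3.65). With the total taken outside the NCR, the ratio of the group means of the whole bin was 1.46.

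**Figure D4:**
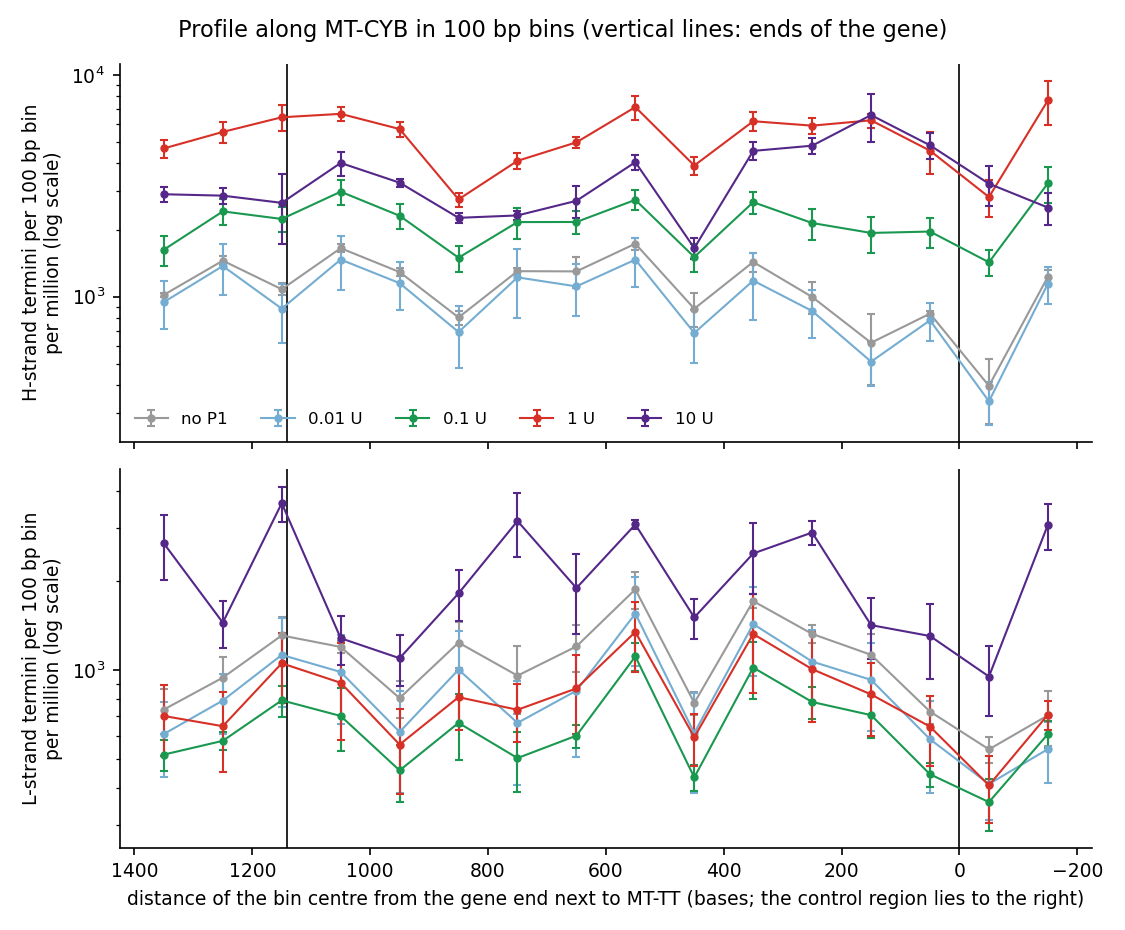
Termini per 100 bp bin per 1000000 mitochondrial termini along MT-CYB and just past its ends, on a log axis, for the H strand (top) and the L strand (bottom), against the distance of the bin centre from the gene end next to MT-TT in bases. Points are means of 3 replicates with the SD, coloured by P1 amount, and vertical lines mark the ends of the gene. Within the gene, the H-strand mean after 10 U is highest at 101 to 200 bases from that end, where the untreated mean is lowest, and the untreated mean is lower still in the bin just past that end.

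**Figure D5:**
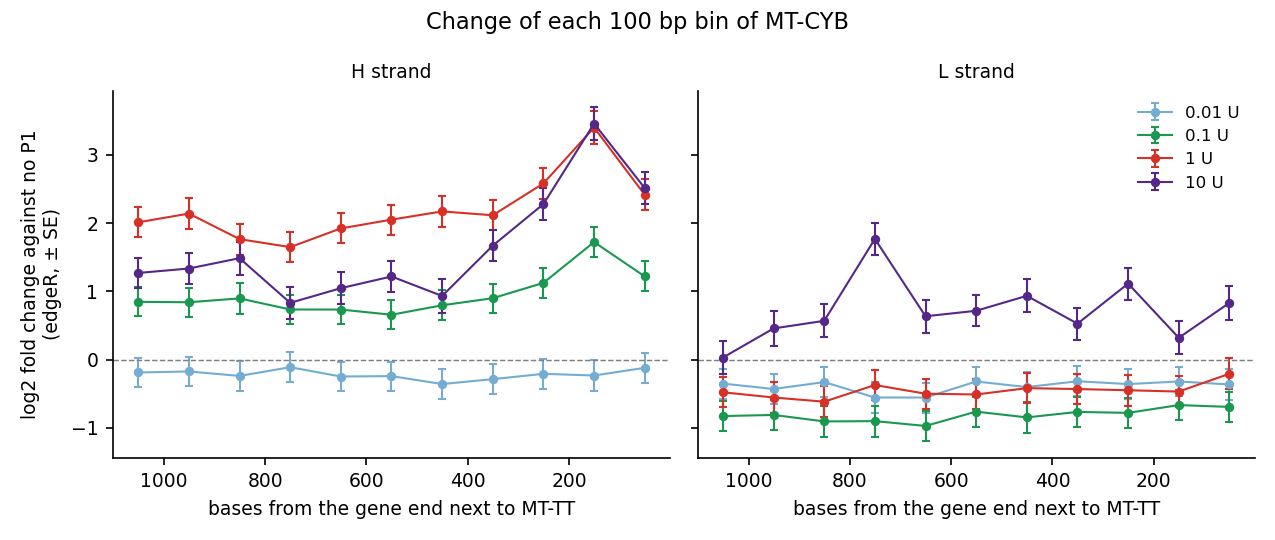
Log2 fold change against the untreated samples of each 100 bp bin of MT-CYB (edgeR, with the SE) on the H strand (left) and the L strand (right), by distance from the gene end next to MT-TT in bases. Colours mark the P1 amount. The H-strand changes peak at 3.40 after 1 U and 3.46 after 10 U in the bin from 101 to 200 bases, and the L-strand changes peak at 1.77 after 10 U in the bin from 701 to 800 bases.

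The slope along the gene was summarised as the ratio of termini in the 570 bases next to the control region to those in the 570 bases farthest from it. On the H strand this ratio was 0.994, 0.767 and 0.798 in untreated replicates 1 to 3 and 0.818, 0.771 and 0.855 after 0.01 U. It was 0.967 to 0.983 after 0.1 U, 1.10 to 1.14 after 1 U and 1.32 to 1.51 after 10 U. The ranges at 1 and 10 U overlapped no range of a lower amount, whereas the shallow untreated replicate 1 lay above the 0.1 U samples. The ratio was 1.33-fold above the untreated one after 1 U (range 1.15 to 1.43) and 1.70-fold above it after 10 U (1.52 to 1.96), higher in 3 of 3 replicates at both amounts. The exact permutation test gave p = 0.000556 (adjusted p = 0.00111 over 8 tests), and without replicate 1 the folds were 1.43 and 1.80. When each position was counted once, the folds were 1.06 after 1 U and 1.11 after 10 U and the exact permutation test gave p = 0.0926. The call on the H-strand slope thus held for termini and not for occupied positions. After 1 U, 89.0 to 94.3% of the H-strand positions held a terminus, against 35.8 to 51.4% after 10 U. So full an occupancy leaves little room for a slope, and the count of occupied positions cannot decide on one after 1 U.

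On the L strand, the ratio of near to far bases was 1.01 to 1.21 without P1, 1.14 to 1.18 after 1 U and 0.934 to 0.952 after 10 U. The exact permutation test gave p = 0.0123 (adjusted p = 0.0140), but the call was lost when any replicate was left out (p of 0.0583 to 0.150) and with unique sites (p = 0.193).

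Single positions were ranked by their mean share of the gene's termini on a strand over all 15 samples. An even spread would give each position 0.0876%. The choice used the samples that are compared here, so a change at a named position is not independent of it. The 5 highest H-strand positions were 14817, 15216, 15701, 14754 and 15093, and the 5 highest L-strand positions were 14755, 14999, 15357, 15370 and 14817. Position 14817, 1070 bases before the gene end, was thus among the highest on both strands, and 14754 on the H strand and 14755 on the L strand are adjacent. The 5 H-strand positions held 6.38% of the H-strand termini of the gene without P1, 2.88% after 1 U and 4.91% after 10 U. The 5 L-strand positions held 7.64%, 7.01% and 5.02%.

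Position 15701, 186 bases before the gene end and in the bin that changed most, had its largest share after 10 U. It held 10, 14 and 17 H-strand termini without P1, 33, 19 and 24 after 0.01 U, 49, 60 and 126 after 0.1 U, 162, 153 and 155 after 1 U, and 61, 66 and 26 after 10 U. Its share of the H-strand termini of MT-CYB was 0.373% ± 0.220 (SD, n = 3) without P1, 0.765% ± 0.0295 after 1 U and 2.69% ± 0.452 after 10 U, and the 3 ranges did not overlap. This position was among the 5 highest through its share after 10 U and was not among them in the untreated or the 1 U samples alone, so its values are a description without a test. The bin around it did not rest on this position, which held 7.45% of the bin's H-strand termini after 1 U and 17.5% after 10 U. Without it the bin was 10.5-fold above the untreated samples after 1 U (range 7.14 to 14.0) and 9.67-fold above them after 10 U (8.74 to 11.1).

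The other high H-strand positions changed less than the gene as a whole. All of them were also among the 5 highest in the untreated samples alone, and none was among the 5 highest in the 1 U samples alone. The choice thus favoured positions that are high without P1, so their smaller change and the edgeR values given here are a description. Position 14817 held 20, 137 and 118 H-strand termini without P1, 91, 79 and 77 after 1 U and 8, 14 and 6 after 10 U. Its share of the gene's H-strand termini was 1.77% ± 0.468 without P1 and 0.401% ± 0.0243 after 1 U, with no overlap. Its scaled level was not called different after 1 U, with a log2 fold change of -0.02 ± 0.29 (edgeR, adjusted p = 0.965), while the gene rose by 2.17. Position 14754, in the start of the gene, held 14, 100 and 105 termini without P1, 136, 147 and 160 after 1 U and 3, 8 and 1 after 10 U. Its log2 fold change was 1.19 ± 0.29 after 1 U and -1.09 ± 0.48 after 10 U (edgeR, adjusted p = 0.000128 and 0.0601), and the call after 1 U was lost with the total taken outside the NCR (log2 0.27, adjusted p = 0.335). Position 15216 had a log2 fold change of 0.63 ± 0.29 after 1 U and 1.25 ± 0.34 after 10 U (edgeR, adjusted p = 0.0569 and 0.00103), and the latter was lost with the total taken outside the NCR (log2 0.06). Position 15093 was not called at 1 or 10 U (edgeR, adjusted p = 0.207 and 0.465).

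The high L-strand positions kept a similar share up to 1 U. Position 14755 held 16, 143 and 124 L-strand termini without P1 and 89, 54 and 45 after 1 U, and its share was 1.72% ± 0.643 without P1, 1.78% ± 0.211 after 1 U and 1.83% ± 0.538 after 10 U. Position 14999 had shares of 1.60% ± 0.312, 1.60% ± 0.304 and 1.06% ± 0.565 at the same amounts. Positions 15357 and 15370 fell after 1 U by 0.71 ± 0.31 and 0.90 ± 0.31 on the log2 scale (edgeR, adjusted p = 0.0444 and 0.00983, with 11% of the L-strand positions tested called lower), and both calls were lost without replicate 2 or 3. Both positions were chosen as high in the samples compared here, the untreated ones included, so these edgeR values are a description. Position 14817 held 1.18% ± 0.561 of the L-strand termini without P1 and 0.437% ± 0.268 after 10 U, with overlapping ranges.

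Which H-strand positions stood highest depended on the P1 amount. Ranked over the untreated samples alone, 4 of the 5 named H-strand positions came up again, and ranked over the 1 U samples alone, 0 of 5 did. On the L strand 4 of 5 came up again in both rankings. The highest H-strand position after 1 U was 15569, 318 bases before the gene end, with 220, 229 and 243 termini after 1 U against 8, 11 and 11 without P1, and its share of the gene was 0.283% ± 0.188 without P1, 1.13% ± 0.109 after 1 U and 1.30% ± 0.431 after 10 U. The next, 14876, held 240, 208 and 189 termini after 1 U against 9, 22 and 17 without P1, but 6, 4 and 4 after 10 U, so its share went from 1.03% ± 0.0839 after 1 U to 0.271% ± 0.0937. Position 15264 held 177, 185 and 197 termini after 1 U and 2, 3 and 1 after 10 U, with shares of 0.911% ± 0.0911 and 0.104% ± 0.0191. These positions were chosen for their 1 U values, so the rise is a description without a test.

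Across single positions with low counts left out, 400 H-strand positions of MT-CYB were tested, and 37.8%, 86% and 40% of them were called higher after 0.1, 1 and 10 U (edgeR), against 30.3%, 72.9% and 39.5% of all mitochondrial H-strand positions tested. The share after 10 U was thus near the background. The low-count rule could be met by the samples of 1 amount alone. Positions could thus enter through the 1 U samples in which they are high, so these filtered shares are a description. Without a filter, 9.75%, 45.4% and 12.7% of the 1138 H-strand positions of MT-CYB with a terminus were called higher (edgeR), against 6.01%, 28.1% and 9.87%. MT-CYB also held more H-strand termini per kb than the rest of the genome, and the part of this density in the shares was not tested. The 114 busiest H-strand positions of each sample held 58.3 to 63.2% of the gene's H-strand termini without P1 and after 0.01 U, 52.4 to 55.2% at 0.1 and 1 U and 63.8 to 65.8% after 10 U. On the L strand the corresponding shares were 56.9 to 62.0% up to 1 U and 69.5 to 71.8% after 10 U. H-strand termini were thus spread over more of the gene at 0.1 and 1 U than in the untreated samples, and the 10 U samples, with their low depth, were concentrated on fewer positions on both strands.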

How the data were processed

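SSiNGLe-P1 libraries of 15 K562 samples (5 groups of 3, grouped by their titles) were analysed. The authors trimmed and filtered reads by tail and base quality, aligned them with BWA-MEM (0.7.12 per the submitters' processing notes) to the hg19 mitochondrial genome and deposited counts of 3′-OH termini per position and strand. Removal of PCR duplicates is not given in the sources used here. A deposited scaled column was not used. Plus-strand rows were read as H-strand termini, and gene ends came from GENCODE 44 without conversion.

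Per-sample values were compared on the log scale with exact permutation tests within replicate numbers, because the authors pair samples by number. The numbers were checked: deviations of samples with the same number correlated with r of -0.22 to 0.73 (median 0.12), so a pairing was not shown by the data. Folds are geometric means over the 3 replicate numbers. The permutation p is the share of arrangements within replicate numbers in which the group means vary at least as much as observed. The edgeR p-values rest on a spread estimated over all 15 samples. Counts of features, 100 bp bins and positions were fitted with edgeR 4.0.16 (quasi-likelihood, replicate block, all mitochondrial termini as library size), called at an adjusted p of 0.05, in R 4.3.3. Positions with low counts were left out before adjustment unless stated. The edgeR step was tested on simulated data of 332 bins for 1 U against untreated: it called 100% of bins changed by a log2 of 1, 95.0% by -1, and 1.10% of unchanged bins. The simulation left 272 of the 332 bins unchanged. Its rates do not cover data, such as these, in which most H-strand bins change and the share of the NCR moves. The permutation test was also tested on simulated data.

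Named positions are the 5 per strand with the highest mean share over all samples. Positions ranked at 1 U and bins singled out were chosen after their values were seen. The gene, neighbours and tests were chosen with earlier results of these data known. Alternatives were other totals (termini outside the NCR, TMM, DESeq2 1.42.0), unique sites, sites with at least 2 termini, thinning to 29622 termini (mean of 20 draws), bins of 50 bp, windows shifted by 1 or 2 bases, bins anchored on the other gene end, filterByExpr or no filter, omission of the named positions, other slope and ranking rules, no replicate block and leaving out each replicate. Thinning of all termini and the omission of the low-count filter were added after seeing the data. Depth was 29622 to 692989 mitochondrial termini per sample.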

Additional observations from a re-analysis of the deposited data

How the results depend on the processing

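Of 304 values of the comparisons recomputed under other settings, 250 kept their direction and their side of the threshold or their size. The rises of the H/L ratio of all termini, the H-strand share and the H-strand density against the rest at 1 and 10 U kept direction and call under each alternative run for them. Moving the gene by 1 or 2 bases, thinning, positions with at least 2 termini and omission of the named positions changed none of the calls of the comparisons. The scaling sets the results at 10 U: with the total taken outside the NCR, the median log2 fold change of the features moved by -0.90 at 1 U and by -1.18 at 10 U. The causes of these changes were not tested.

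With the total taken outside the NCR, the L-strand share at 10 U was 0.786 of the untreated share. The L-strand log2 fold change of MT-CYB at 10 U was -0.35 with this total, -0.17 with TMM factors and -0.28 with DESeq2. The uncalled H-strand value at 0.01 U turned to 0.074, 0.18 and 0.13 in the same order, and the L-strand one to 0.042 with TMM factors. At 10 U, 36.4% of the H-strand bins were called higher with this total, 63.6% with TMM factors and 45.5% with DESeq2, and 9.09% of the L-strand bins were with each of the 3. At 1 U, 100% of the L-strand bins were called lower with each of the 3, and 27.3% with bins of 50 bp. Among positions at 10 U, the log2 fold change in the same order was -0.34, -0.41 and -0.38 for L-strand 14755, -1.06, -1.13 and -1.13 for L-strand 14999, and -1.19, -1.26 and -1.24 for L-strand 15357, and it was -0.011 with TMM factors for H-strand 15216. Ranked over the 1 U samples, 0 of the named H-strand positions came up again.

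Unique sites took the slope of the H strand to 1.06 at 1 U and 1.11 at 10 U (exact permutation p = 0.0926), that of the L strand to 1.06 and 1.09, the L-strand density against the rest to 1.02 and 1.01, and the H-strand density against the rest to 1.03 and 1.13, still called. The slope over the 11 full bins gave 1.08 and 1.10 for the L strand.

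Without the replicate block, the L-strand density against the rest had the same folds, 1.02 at 1 U and 1.01 at 10 U, and missed the threshold (exact permutation p = 0.0528), the L-strand log2 fold change of MT-CYB at 1 U was -0.42 and no longer called (edgeR, adjusted p = 0.0891), and 0% of the L-strand bins were called lower at 1 U. The block changed no other call of the comparisons.

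With 1 replicate number left out in every group, the fold at 1 U and at 10 U ranged over 1.53 to 1.69 and 1.37 to 1.44 for the H/L ratio of unique sites (lost without replicate 2), 0.648 to 0.791 and 1.75 to 1.83 for the L-strand share (lost without replicate 2), 0.986 to 1.04 and 0.981 to 1.02 for the L-strand density against the rest, and 0.980 to 1.07 and 0.797 to 0.878 for the L-strand slope. The L-strand log2 fold change of MT-CYB ranged from -0.87 to -0.67 at 0.1 U and from -0.63 to -0.34 at 1 U. The share of L-strand bins called ranged over 0 to 100% lower at 0.1 U, 0 to 72.7% lower at 1 U and 36.4 to 72.7% higher at 10 U, with the lowest without replicate 2. The 10 U samples, with 1171 to 2427 H-strand and 646 to 1559 L-strand termini in the gene, limit the values of single positions there.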
